A study of Homo sapiens with 32 samples.

Results

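The levels of 9 genes of the NRF2 antioxidant system were followed in 2 human prostate cancer cell lines. The genes were NFE2L2, KEAP1, HMOX1, NQO1, GCLC, GCLM, TXN, TXNRD1 and SRXN1. They were picked by gene name, with no measured value in the rule, and each matched 1 row, so the set is 9 of the 29744 genes in the table. The study measured mRNA by strand-specific poly(A) RNA sequencing in LNCaP, an androgen-responsive line from a lymph node metastasis of prostate cancer, and in C4-2B, a derivative of LNCaP. Cells received an siRNA against MOCOS (siMOCOS) or a control siRNA (siCTRL), and were treated with thapsigargin (TG) or left without it. MOCOS encodes the molybdenum cofactor sulfurase, which xanthine oxidase and aldehyde oxidase require. TG blocks the calcium pump of the endoplasmic reticulum (ER) and so causes ER stress. The 8 groups of 4 libraries were, in each line, siMOCOS with TG, siCTRL with TG, siMOCOS without TG, and siCTRL without TG, the last described as vehicle-treated. Each siMOCOS group pools 2 siRNAs, and the 4 knockdown columns of a group are numbered without naming the siRNA. Neither the dose nor the duration of TG is stated in the sources, and the design text calls the replicates biological without saying what each came from.

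NRF2, the product of NFE2L2, is a transcription factor that activates genes for glutathione synthesis, the thioredoxin system and quinone and haem breakdown. KEAP1 binds NRF2 and hands it to a ubiquitin ligase for degradation, and oxidants or electrophiles that modify KEAP1 let NRF2 accumulate. Activity of the pathway is therefore set largely at the level of NRF2 protein, which mRNA counts do not measure. The ER stress kinase PERK is also known to act on NRF2, and the ER stress factor ATF4 drives several of the same genes.

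The libraries held 7507226 to 27088570 counts each. Levels are in CPM, that is, a gene's share of its library after scaling of all 32 together, and changes as log2 ratios from edgeR's quasi-likelihood test within a line, with a gene called at an adjusted p under 0.05. All 9 genes passed the filter on low counts in each fit. The 9 luminal prostate markers checked, among them KLK3 and HOXB13, were above 0 in all 32 libraries. Their summed level ranged over 2410 to 2699 CPM in siCTRL TG and 5278 to 5906 CPM in siCTRL LNCaP cells, and over 1637 to 1755 CPM in siCTRL TG and 2722 to 2912 CPM in siCTRL C4-2B cells. Markers of other cell types were low. COL1A2 and INSM1 were at 0 in all 32 libraries, PECAM1 in 26 and CDH5 in 30. Other markers of the same lists were above 0 in all 32 libraries. They were the endothelial VWF (0.918 to 9.08 CPM), the neuroendocrine SYP (1.08 to 20.3 CPM) and the stromal COL1A1 (3.04 to 22.4 CPM) and COL3A1 (0.0379 to 2.93 CPM). The summed stromal markers reached at most 22.9 CPM, the neuroendocrine ones 20.3, the endothelial ones 9.08, the basal ones 3.77 and the leukocyte ones 0.167. The endothelial sum was 5.37 to 8.43 CPM in siCTRL TG and 2.14 to 2.84 CPM in siCTRL LNCaP cells, and 4.62 to 6.30 CPM in siCTRL TG and 0.918 to 1.32 CPM in siCTRL C4-2B cells. The stromal sum was 7.34 to 9.82 CPM in siCTRL TG and 3.84 to 5.26 CPM in siCTRL LNCaP cells, and 6.50 to 15.7 CPM in siCTRL TG and 3.49 to 7.57 CPM in siCTRL C4-2B cells. The part of these shifts in the results was not tested.

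MOCOS, the target of the siRNAs, was measured in LNCaP at 4.12, 3.58, 3.46 and 3.86 CPM in siMOCOS and 25.2, 24.4, 23.9 and 23.7 CPM in siCTRL cells, and in C4-2B at 2.30, 2.83, 3.94 and 4.64 CPM in siMOCOS and 32.8, 33.6, 30.0 and 29.5 CPM in siCTRL cells. With TG it averaged 14.3 ± 4.11 CPM in siMOCOS TG and 96.1 ± 5.11 CPM in siCTRL TG LNCaP cells, and 14.8 ± 4.38 CPM in siMOCOS TG and 89.4 ± 2.68 CPM in siCTRL TG C4-2B cells (SD, n = 4 each). Every knockdown library lay below every control library of its line and treatment, and MOCOS itself rose with TG in siCTRL cells, 3.96-fold in LNCaP (adjusted p = 8.22e-09) and 2.83-fold in C4-2B (adjusted p = 1.47e-05).

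NRF2 binds the antioxidant response element, searched here as TGACNNNGC on both strands of the RefSeq promoter windows, which run from 250 bases before to 50 bases after each start site (GRCh38.p14). Windows were found for 8 of the 9 genes, 11 windows in all, and HMOX1 had none in the table. The motif was found 6 times in 4 of these windows, belonging to GCLM, TXNRD1 and KEAP1, and 13.3% of all 35116 windows held it. The stretches below are shown because they hold the letters of the NRF2 element near a start site. Each match is in capitals, with 25 bases on each side of the GCLM, TXNRD1 and second KEAP1 match, and a site reading GC first lies on the reverse strand. A match describes the letters and says nothing of binding.
GCLM: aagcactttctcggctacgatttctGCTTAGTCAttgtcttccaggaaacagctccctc
TXNRD1 upstream start: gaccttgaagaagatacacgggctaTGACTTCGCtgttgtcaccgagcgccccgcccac
TXNRD1 downstream start: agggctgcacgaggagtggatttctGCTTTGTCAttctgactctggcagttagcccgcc
KEAP1: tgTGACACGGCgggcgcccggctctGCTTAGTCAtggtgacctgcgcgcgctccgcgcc
The GCLM stretch is chr1:93909431-93909489 on the minus strand, with its motif starting at position -34 from the start site. The TXNRD1 stretches are chr12:104215655-104215713 and chr12:104286905-104286963 on the plus strand, with motifs starting at -99 and -102. The KEAP1 stretch is chr19:10502769-10502827 on the minus strand, with motifs starting at -54 and -31. The upstream TXNRD1 window holds a further match at -8, outside the stretch shown. The GCLM motif and the KEAP1 motif at -31 have the same 9 letters. Over the whole gene (GRCh38, GENCODE 29), GCLM spans chr1:93885205-93909456, TXNRD1 chr12:104215779-104350305 and KEAP1 chr19:10486120-10503741.

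Those of the 9 genes that changed with TG did so in both directions. TXN, NQO1 and KEAP1 fell in both lines when siCTRL cells received TG. TXNRD1 and SRXN1 also fell in C4-2B, and NFE2L2, GCLM and HMOX1 rose in LNCaP. In LNCaP 3 of the 9 genes were called higher and 3 lower, against 24.6% and 25.1% of all 13806 genes tested (49.7% in either direction). In C4-2B 0 were called higher and 5 lower, against 21.2% and 19.3% of 14127 genes (40.5% in either direction). DESeq2 and limma voom also called none higher in C4-2B, and NFE2L2 and GCLC had unadjusted p under 0.05 with positive changes. All 32 libraries in 1 fit called both higher, and upper-quartile factors and siCTRL libraries alone called NFE2L2. With shares this large over all genes, the counts are not read as particular to the set. The median log2 change of the 9 genes was -0.07 in LNCaP, against -0.04 over all genes, and -0.37 in C4-2B, against -0.01 over all genes. The levels are shares of each library, so in these bulk samples fewer cells of a type and less RNA per cell cannot be told apart.

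**Figure D1:**
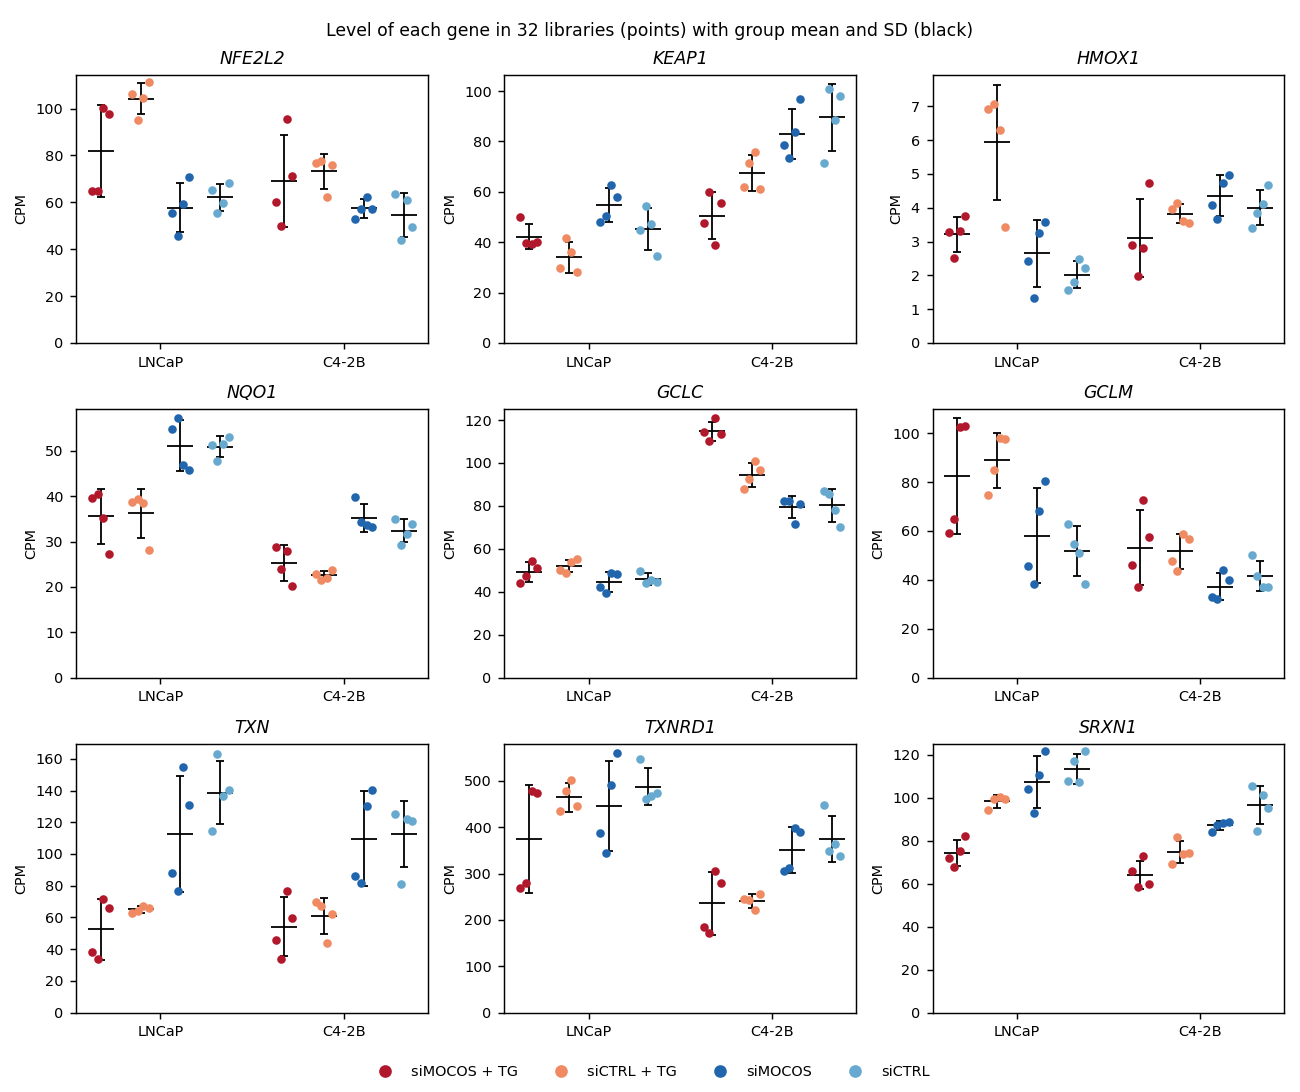
Level of each of the 9 genes in CPM (linear axis from 0) in the 32 libraries, with siMOCOS TG, siCTRL TG, siMOCOS and siCTRL from left to right in LNCaP and then C4-2B; points are libraries and black marks the group mean and SD. HMOX1 stands at 5.93 ± 1.69 CPM in siCTRL TG LNCaP cells and at or below 4.36 ± 0.602 CPM in every other group, and TXN is lower with TG than without it in both lines.

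Of the pathway's regulators, NFE2L2, located at chr2:177227595-177392697, had 106, 95.0, 104 and 111 CPM in siCTRL TG LNCaP cells, against 65.1, 55.3, 59.6 and 68.3 CPM in siCTRL cells. The groups did not overlap, and the rise was 1.68-fold (log2 change 0.75, SE 0.15, adjusted p = 0.000607), called in all 24 alternative settings. In C4-2B it had 76.9, 77.7, 62.2 and 76.1 CPM with TG and 63.4, 43.7, 61.0 and 49.3 CPM without it. The third TG library fell among the siCTRL values, and the difference just missed the threshold (log2 change 0.43, SE 0.17, adjusted p = 0.0501), with 8 of 24 alternative settings calling it, among them leaving out siCTRL library 1, siCTRL TG library 3 or siMOCOS TG library 1, 2 or 3 (adjusted p 0.0163 to 0.137 over all settings). The difference between the lines was not called (LNCaP minus C4-2B 0.32, SE 0.24, adjusted p = 0.768). AGPS overlaps NFE2L2 on the opposite strand with a mean of 616.8 counts against 1237 for NFE2L2, and how strand was used in counting is not given in the sources used here.

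KEAP1, the inhibitor, had 29.8, 41.7, 36.1 and 28.3 CPM in siCTRL TG LNCaP cells, against 44.8, 54.3, 47.2 and 34.4 CPM in siCTRL cells. C4-2B cells had 61.7, 71.3, 75.8 and 61.2 CPM with TG, against 71.4, 101, 88.3 and 97.9 CPM without it. TG libraries were lower on average but overlapped the controls in both lines (log2 change -0.41, SE 0.15, adjusted p = 0.0314 in LNCaP; log2 change -0.41, SE 0.15, adjusted p = 0.042 in C4-2B). Both calls depended on single libraries. Leaving out LNCaP siCTRL library 1, 2 or 3, siCTRL TG library 1, 3 or 4 or siMOCOS TG library 2, 3 or 4 ended the LNCaP call, and leaving out C4-2B siCTRL library 2, 3 or 4, siCTRL TG library 1, 2 or 4 or siMOCOS TG library 1 ended the C4-2B call (highest adjusted p 0.157 and 0.139 over all settings).

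HMOX1 (chr22:35380361-35394214) encodes haem oxygenase 1, which breaks haem down to biliverdin, iron and carbon monoxide. Its level was low, and it showed the largest TG change of the 9 genes. In LNCaP it had 6.92, 7.08, 6.29 and 3.44 CPM in siCTRL TG cells, against 1.58, 1.80, 2.47 and 2.22 CPM in siCTRL cells. All 4 TG libraries were higher than all 4 controls, with the fourth TG library nearest to them, and the rise was 2.96-fold (log2 change 1.57, SE 0.29, adjusted p = 0.000243), also called in all 24 alternative settings. C4-2B had 3.95, 4.14, 3.62 and 3.55 CPM with TG and 3.40, 3.83, 4.11 and 4.67 CPM without it, overlapping values with no call (log2 change -0.07, SE 0.23, adjusted p = 0.824). The TG response differed between the lines (LNCaP minus C4-2B 1.63, SE 0.37, adjusted p = 0.022), and HMOX1 was the only 1 of the 9 genes for which it did, against 0.848% of all 14628 genes. This call was kept in 33 of 38 alternative settings. It was lost (highest adjusted p 0.0625) without C4-2B siCTRL library 4, LNCaP siCTRL library 1 or 2, or LNCaP siCTRL TG library 1 or 2, with the difference at 1.52 to 1.82 over all settings.

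NQO1 (chr16:69706996-69726951) encodes a quinone reductase and is a standard readout of NRF2 activity. It had 38.6, 39.5, 38.5 and 28.1 CPM in siCTRL TG LNCaP cells, against 51.3, 47.7, 51.6 and 53.0 CPM in siCTRL cells. In C4-2B the values were 22.8, 21.6, 22.1 and 23.8 CPM with TG, against 34.9, 29.2, 31.6 and 33.8 CPM without it. Every TG library lay below every control in both lines (log2 change -0.49, SE 0.13, adjusted p = 0.00505 in LNCaP; log2 change -0.53, SE 0.12, adjusted p = 0.00268 in C4-2B), and all 24 alternative settings kept each call.

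Glutathione synthesis starts with glutamate-cysteine ligase, whose catalytic subunit is GCLC (chr6:53497341-53616970) and whose modifier subunit is GCLM. GCLM had 74.6, 85.1, 98.1 and 97.7 CPM in siCTRL TG LNCaP cells, against 62.9, 54.7, 51.2 and 38.5 CPM in siCTRL cells. The groups did not overlap (log2 change 0.78, SE 0.23, adjusted p = 0.00866), and no alternative setting ended the call. In C4-2B it had 47.8, 43.7, 58.6 and 56.6 CPM with TG and 50.2, 41.6, 37.1 and 37.1 CPM without it, which overlapped (log2 change 0.31, SE 0.18, adjusted p = 0.179). GCLC had 50.1, 49.0, 53.8 and 55.2 CPM in siCTRL TG LNCaP cells, against 49.8, 44.0, 45.6 and 44.6 CPM in siCTRL cells, again overlapping (log2 change 0.18, SE 0.10, adjusted p = 0.143). Fits of the siCTRL libraries alone, with and without a replicate block, called GCLC higher in LNCaP (lowest adjusted p 0.0272 over all settings). Its C4-2B values were 87.7, 92.6, 101 and 96.7 CPM with TG and 87.0, 85.7, 78.1 and 70.3 CPM without it. All 4 TG libraries were the higher, by a narrow margin, and the difference was not called (log2 change 0.23, SE 0.10, adjusted p = 0.0782), except without siMOCOS TG library 2 or with all 32 libraries in 1 fit.

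The thioredoxin genes were lower with TG in C4-2B, and TXN in both lines. TXN (chr9:110243811-110256640), which encodes thioredoxin, the protein that reduces disulfides in other proteins, had 62.5, 64.2, 67.4 and 65.9 CPM in siCTRL TG LNCaP cells, against 114, 163, 137 and 141 CPM in siCTRL cells. In C4-2B it had 70.0, 67.1, 44.1 and 62.4 CPM with TG, against 125, 81.2, 122 and 121 CPM without it. The groups did not overlap in either line, with falls of 2.13-fold in LNCaP (log2 change -1.09, SE 0.23, adjusted p = 0.000839) and 1.85-fold in C4-2B (log2 change -0.89, SE 0.24, adjusted p = 0.00672). The lowest library of each C4-2B group also deviated by transcript length: over genes, the deviation from the group mean correlated with log2 length at r = 0.247 in siCTRL TG library 3 and 0.249 in siCTRL library 2, and TXN, whose median transcript is shorter than that of all but 13.0% of genes, deviated by -0.56 in the siCTRL TG and -0.51 in the siCTRL library on the log2 scale. All 24 alternative settings kept the TXN call in each line, leaving out either of those libraries among them. In column 2 of siMOCOS TG cells TXN deviated by -0.59 in C4-2B and -0.56 in LNCaP, where the r with length was -0.0965 and 0.0088. Whether transcript length has a part in the TXN values was not tested. TXN also has 7 processed pseudogenes, none of them in the table, so reads shared with them are an uncertainty.

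TXNRD1, the reductase that recharges thioredoxin, had 434, 477, 502 and 445 CPM in siCTRL TG LNCaP cells, against 546, 462, 466 and 474 CPM in siCTRL cells, with overlap and no call (log2 change -0.07, SE 0.18, adjusted p = 0.786). In C4-2B it had 245, 243, 220.4 and 256 CPM with TG, against 448, 349, 363 and 338 CPM without it, and no library overlapped (log2 change -0.64, SE 0.17, adjusted p = 0.00576). EID3 lies within TXNRD1 on the same strand, with a mean of 1.7 counts against 6239.8. The difference between the lines was 0.57 (SE 0.26, adjusted p = 0.45), so the response was not shown to differ. SRXN1 (chr20:646615-653370), sulfiredoxin, which repairs over-oxidised peroxiredoxins, had 94.0, 99.3, 101 and 99.2 CPM in siCTRL TG LNCaP cells, against 108, 117, 107 and 122 CPM in siCTRL cells. Its C4-2B values were 69.2, 81.8, 73.8 and 74.2 CPM with TG and 105, 84.7, 101 and 95.2 CPM without it. TG libraries were all lower in both lines, and the fall was called in C4-2B (log2 change -0.37, SE 0.10, adjusted p = 0.00899) and not in LNCaP (log2 change -0.20, SE 0.09, adjusted p = 0.0846).

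**Figure D2:**
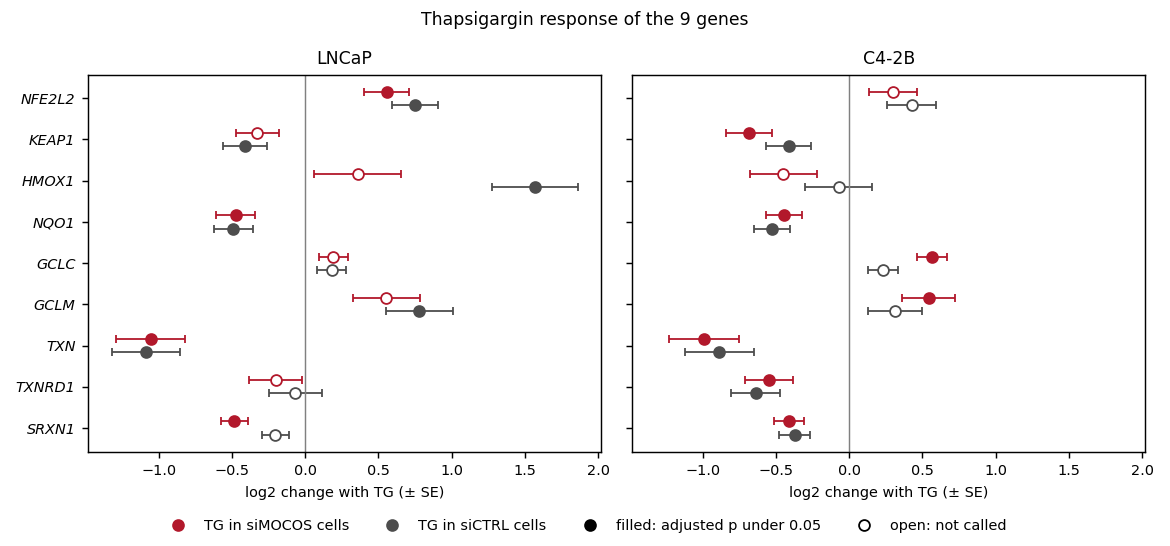
Log2 change with TG for each of the 9 genes in siMOCOS cells (red, upper) and siCTRL cells (grey, lower) of LNCaP and C4-2B; bars are standard errors and filled points have an adjusted p under 0.05. TXN is the lowest gene in all 4 comparisons, and HMOX1 is at 1.57 in siCTRL LNCaP cells and 0.36 in siMOCOS LNCaP cells.

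In siMOCOS cells TG lowered TXN, SRXN1 and NQO1 in both lines. KEAP1 and TXNRD1 were also called lower and GCLC and GCLM higher in C4-2B, and NFE2L2 was called higher in LNCaP. GCLM in LNCaP just missed the threshold (log2 change 0.55, SE 0.23, adjusted p = 0.0542), with 9 of 24 alternative settings calling it. KEAP1 in LNCaP was not called either (log2 change -0.33, SE 0.15, adjusted p = 0.0836). In LNCaP 1 gene was called higher and 3 lower, against 25.1% and 21.9% of all genes (47% in either direction). In C4-2B 2 were called higher and 5 lower, against 20.7% and 17.2% (37.9% in either direction). GCLC in C4-2B had 114, 110.4, 121 and 114 CPM in siMOCOS TG and 82.5, 82.2, 71.7 and 81.0 CPM in siMOCOS cells, 2 groups well apart (log2 change 0.57, SE 0.10, adjusted p = 0.00031). GCLM there had 46.1, 36.9, 72.6 and 57.4 CPM in siMOCOS TG and 33.1, 32.2, 43.9 and 39.9 CPM in siMOCOS cells, which overlapped (log2 change 0.54, SE 0.18, adjusted p = 0.0251), and its call ended without siMOCOS TG library 3 or 4 or siMOCOS library 1 or 2 (highest adjusted p 0.137). KEAP1 in C4-2B was 47.6, 59.9, 38.8 and 55.6 CPM in siMOCOS TG and 78.5, 73.6, 83.6 and 96.7 CPM in siMOCOS cells, with no overlap (log2 change -0.68, SE 0.16, adjusted p = 0.00224). Without knockdown columns 3 and 4 it was not called (log2 change -0.46, adjusted p = 0.0937). NFE2L2 in LNCaP was 64.9, 65.0, 100.1 and 97.8 CPM in siMOCOS TG and 55.3, 45.7, 59.2 and 70.7 CPM in siMOCOS cells (log2 change 0.56, SE 0.16, adjusted p = 0.00687).

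The genes that fell in siMOCOS cells of both lines can be set beside their values in siCTRL cells. TXN changed by -1.05 (SE 0.23) in LNCaP and -0.99 (SE 0.24) in C4-2B, NQO1 by -0.47 and -0.45, and SRXN1 by -0.48 and -0.41, all on the log2 scale in siMOCOS cells. The same 3 genes in siCTRL cells changed by -1.09 and -0.89, -0.49 and -0.53, and -0.20 and -0.37, in the same order of lines. The test of the difference itself, the change with TG in siMOCOS minus that in siCTRL cells, called 0 of the 9 genes in either line, against 0.0708% of all genes in C4-2B and 0.00724% in LNCaP. DESeq2 and limma voom called 0 as well. At an unadjusted p under 0.05 there was 1 gene in each line, GCLC in C4-2B (log2 change 0.34, SE 0.14, adjusted p = 0.608) and HMOX1 in LNCaP (log2 change -1.21, SE 0.42, adjusted p = 0.521).

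Knockdown of MOCOS without TG left the 9 genes with no call in either line, against 15.7% of all genes in LNCaP and 17.2% in C4-2B, and no gene had an unadjusted p under 0.05. DESeq2 and limma voom also called 0. The largest changes were HMOX1 in LNCaP, with 2.41, 1.34, 3.26 and 3.57 CPM in siMOCOS and 1.58, 1.80, 2.47 and 2.22 CPM in siCTRL cells (log2 change 0.35, SE 0.31, adjusted p = 0.474), and TXN in LNCaP, with 88.0, 76.4, 155 and 131 CPM in siMOCOS and 114, 163, 137 and 141 CPM in siCTRL cells (log2 change -0.32, SE 0.23, adjusted p = 0.367). In C4-2B the 9 changes ran from -0.16 for GCLM to 0.11 for HMOX1. This comparison and that of TG in siCTRL cells use the same siCTRL libraries, as the comparisons with TG use the same siCTRL TG libraries.

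Marker sums also moved with knockdown. The stromal sum was 12.6 to 19.4 CPM in siMOCOS TG and 7.34 to 9.82 CPM in siCTRL TG LNCaP cells, and 6.84 to 9.09 CPM in siMOCOS and 3.84 to 5.26 CPM in siCTRL LNCaP cells. The luminal sum was 3268 to 4503 CPM in siMOCOS and 2722 to 2912 CPM in siCTRL C4-2B cells, and 1856 to 2144 CPM in siMOCOS TG and 1637 to 1755 CPM in siCTRL TG C4-2B cells. Their part in the knockdown results was not tested.

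With TG present, knockdown lowered HMOX1 and SRXN1 in LNCaP and raised GCLC in C4-2B. In LNCaP 2 of the 9 were called lower, against 10.2% of all genes (21.9% in either direction), and in C4-2B 1 was called higher, against 9.21% (16.8% in either direction). HMOX1 had 3.29, 2.50, 3.30 and 3.75 CPM in siMOCOS TG LNCaP cells, against 6.92, 7.08, 6.29 and 3.44 CPM in siCTRL TG cells. The fourth siCTRL TG library overlapped the knockdown group and the other 3 lay well above it (log2 change -0.86, SE 0.27, adjusted p = 0.0331). Leaving out siCTRL TG library 1, 2 or 3 or knockdown column 1 or 2 ended this call (highest adjusted p 0.0908 over all settings).

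SRXN1 had 72.1, 67.9, 75.2 and 82.1 CPM in siMOCOS TG LNCaP cells, against 94.0, 99.3, 101 and 99.2 CPM in siCTRL TG cells. All knockdown libraries were the lower (log2 change -0.38, SE 0.09, adjusted p = 0.00906), and all 24 alternative settings kept the call. In C4-2B, SRXN1 had 65.8, 58.2, 72.7 and 59.8 CPM in siMOCOS TG and 69.2, 81.8, 73.8 and 74.2 CPM in siCTRL TG cells, overlapping and not called (log2 change -0.20, SE 0.10, adjusted p = 0.223). GCLC had 114, 110.4, 121 and 114 CPM in siMOCOS TG C4-2B cells, against 87.7, 92.6, 101 and 96.7 CPM in siCTRL TG cells. The groups did not overlap (log2 change 0.31, SE 0.10, adjusted p = 0.045), but only 9 of 24 alternative settings kept the call, and it ended without any single siMOCOS TG library, siCTRL TG library 1, 2 or 4, siCTRL library 3, or siMOCOS library 1, 2 or 4 (highest adjusted p 0.123). KEAP1 in C4-2B was lower in every knockdown library, with 47.6, 59.9, 38.8 and 55.6 CPM in siMOCOS TG and 61.7, 71.3, 75.8 and 61.2 CPM in siCTRL TG cells, without a call (log2 change -0.39, SE 0.16, adjusted p = 0.0983). The siMOCOS responses were not shown to differ between the lines for any of the 9 genes, against 0.431% of all genes with TG and 0.157% without it. KEAP1 with TG was nearest (LNCaP minus C4-2B 0.73, SE 0.21, adjusted p = 0.108).

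The 4 knockdown columns of a group did not behave alike. TXN, TXNRD1 and GCLM had both columns 1 and 2 below both columns 3 and 4 in all 4 knockdown groups, and NFE2L2, HMOX1 and SRXN1 in 3 of the 4. NQO1 went the other way in 3 of the 4. The share of all genes ordered by column pair was not counted, so the order is not read as particular to these genes. In siMOCOS TG LNCaP cells TXNRD1 had 269, 280.5, 479 and 474 CPM in columns 1 to 4, against 434, 477, 502 and 445 CPM in the 4 siCTRL TG libraries. TXN had 38.3, 33.9, 71.8 and 66.1 CPM in the same columns, against 62.5, 64.2, 67.4 and 65.9 CPM in siCTRL TG cells. Columns 3 and 4 lay within the control range or, for TXN column 3, above it, and columns 1 and 2 far below it. MOCOS itself was lower in columns 1 and 2 than in columns 3 and 4 of both TG groups and of siMOCOS C4-2B cells, and not of siMOCOS LNCaP cells. In siMOCOS C4-2B cells the 2 pairs also deviated with GC content over genes in opposite ways (r of -0.456 and -0.300 in columns 1 and 2, 0.415 and 0.339 in columns 3 and 4), but in siMOCOS TG C4-2B cells the pairs did not separate (-0.0969 and 0.493 in columns 1 and 2, -0.546 and 0.182 in columns 3 and 4). In siMOCOS TG LNCaP cells the pairs separated the other way (0.386 and 0.0755 in columns 1 and 2, -0.356 and -0.117 in columns 3 and 4), and in siMOCOS LNCaP cells they did not separate (-0.459 and 0.117 in columns 1 and 2, 0.369 and 0.0176 in columns 3 and 4). Control libraries deviated with GC content too, at r of -0.692, -0.1495, 0.480 and 0.570 in siCTRL C4-2B libraries 1 to 4. The part of GC content in the results was not tested. Which siRNA a column holds was not used here, and whether the columns differ by siRNA was not tested.

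**Figure D3:**
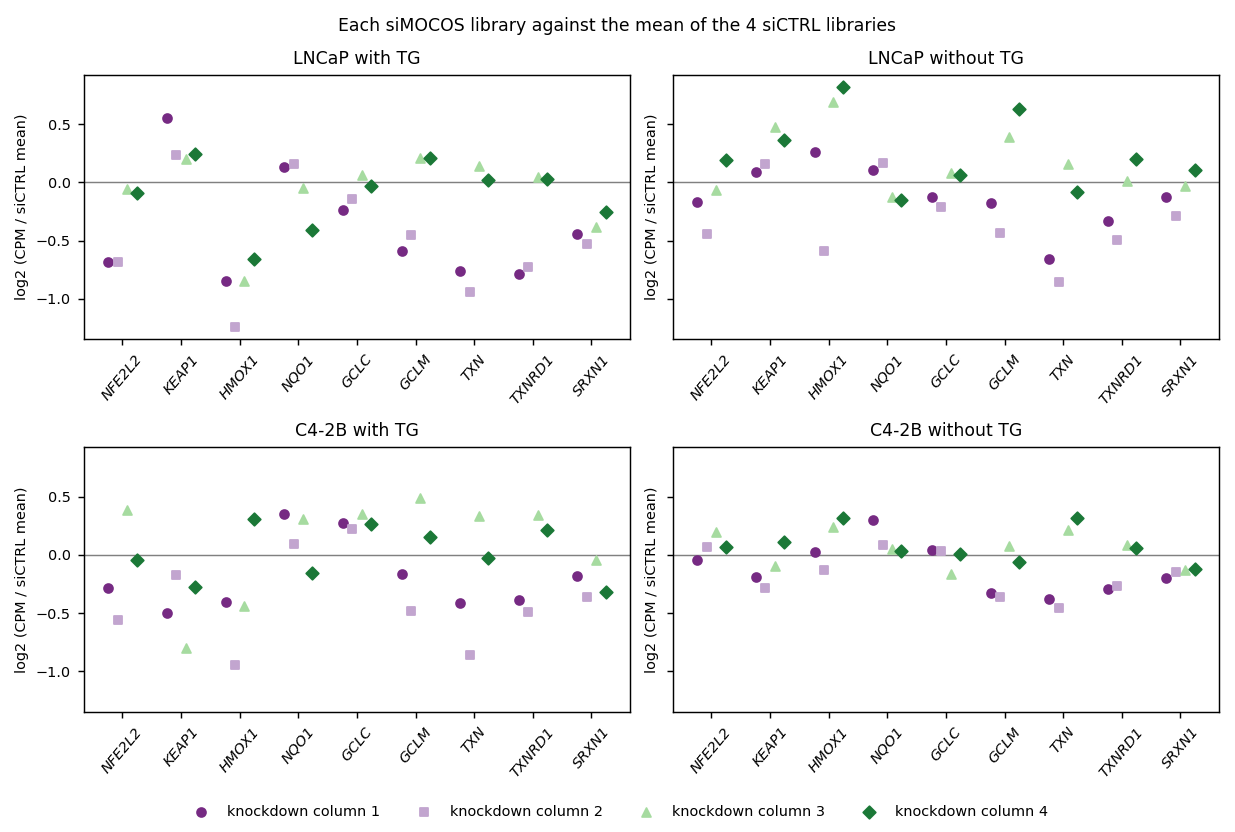
Log2 ratio of the CPM of each knockdown library to the mean of the 4 siCTRL libraries of the same line and treatment, for the 9 genes; symbols mark the knockdown columns 1 to 4. For TXN, TXNRD1 and GCLM the points of columns 1 and 2 lie below those of columns 3 and 4 in all 4 panels. The share of all genes ordered this way was not counted.

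With columns 3 and 4 left out, 6 of the 9 genes were called lower with knockdown in TG-treated LNCaP cells, where the full groups gave 2, against 22.6% of all genes called lower (39.1% in either direction). They were TXN (log2 change -0.86, adjusted p = 9.34e-05), TXNRD1 (log2 change -0.77, adjusted p = 2.58e-05), NFE2L2 (log2 change -0.69, adjusted p = 0.000144), GCLM (log2 change -0.53, adjusted p = 0.0151), HMOX1 and SRXN1. TG-treated C4-2B cells had TXN (log2 change -0.59, adjusted p = 0.0434), TXNRD1 (log2 change -0.41, adjusted p = 0.0198) and HMOX1 (log2 change -0.62, adjusted p = 0.0483) called lower, against 16.5% of all genes (30.7% in either direction). LNCaP cells without TG had TXN (log2 change -0.73, adjusted p = 0.000576) and TXNRD1 (log2 change -0.39, adjusted p = 0.0088) called lower, against 12.6% (23.9% in either direction), and C4-2B cells without TG had no call, against 30.6% in either direction. With columns 1 and 2 left out instead, SRXN1 alone was called lower in TG-treated LNCaP cells (log2 change -0.33, adjusted p = 0.0179), against 9.96% of all genes (16.8% in either direction), and GCLM was called higher in LNCaP cells without TG (log2 change 0.53, adjusted p = 0.0258), against 8.93% (20% in either direction). None was then called in C4-2B cells with TG, against 17% of all genes in either direction, or without it, against 14.9%. SRXN1 in TG-treated LNCaP cells was thus the only knockdown call of the 9 genes made with the full groups and with each pair of columns.

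The lines differed before any treatment. In siCTRL cells without TG, NQO1 and SRXN1 were higher in LNCaP than in C4-2B, and KEAP1, HMOX1 and GCLC were lower, 5 of the 9 genes against 41.2% of all genes (differences are LNCaP minus C4-2B). KEAP1 had 44.8, 54.3, 47.2 and 34.4 CPM in LNCaP and 71.4, 101, 88.3 and 97.9 CPM in C4-2B, with no overlap (log2 difference -0.99, SE 0.15, adjusted p = 5.62e-06). GCLC had 49.8, 44.0, 45.6 and 44.6 CPM in LNCaP and 87.0, 85.7, 78.1 and 70.3 CPM in C4-2B (log2 difference -0.80, SE 0.09, adjusted p = 3.14e-08), and the 8 values formed 2 separate sets. HMOX1 had 2.02 ± 0.402 CPM in LNCaP and 4.00 ± 0.530 CPM in C4-2B (SD, n = 4 each; log2 difference -1.0, SE 0.27, adjusted p = 0.00363).

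NQO1 averaged 50.9 ± 2.27 CPM in LNCaP and 32.4 ± 2.53 CPM in C4-2B (SD, n = 4 each; log2 difference 0.65, SE 0.13, adjusted p = 0.000145). The SRXN1 difference was small, 113 ± 7.13 CPM in LNCaP and 96.6 ± 8.99 CPM in C4-2B (log2 difference 0.23, SE 0.09, adjusted p = 0.0484), and only 8 of 38 alternative settings kept its call, which ended without any single siMOCOS C4-2B library or any single siCTRL TG library of either line, among others (highest adjusted p 0.201). TXNRD1 was higher in every LNCaP than in every C4-2B control, 487 ± 39.9 and 374 ± 49.9 CPM, without a call (log2 difference 0.38, SE 0.18, adjusted p = 0.0942). NFE2L2, GCLM and TXN overlapped between the lines. In each line, both groups with TG had lower means of TXN and NQO1 than both groups without it. GCLC was higher in every C4-2B library than in every LNCaP library, whatever the treatment.

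Across the 8 groups the spread within a group often covered the step to the next. NFE2L2 averaged 82.0 ± 19.7 CPM in siMOCOS TG, 104 ± 6.75 in siCTRL TG, 57.7 ± 10.3 in siMOCOS and 62.1 ± 5.77 in siCTRL LNCaP cells, and 69.1 ± 19.7 in siMOCOS TG, 73.2 ± 7.38 in siCTRL TG, 57.4 ± 3.86 in siMOCOS and 54.4 ± 9.39 in siCTRL C4-2B cells (SD, n = 4 in each group here and below). Its means were highest in siCTRL TG LNCaP and lowest in siCTRL C4-2B cells, and every pair of neighbours in this order overlapped. KEAP1 averaged 42.3 ± 5.09 CPM in siMOCOS TG, 34.0 ± 6.15 in siCTRL TG, 54.8 ± 6.78 in siMOCOS and 45.2 ± 8.23 in siCTRL LNCaP cells, and 50.5 ± 9.30 in siMOCOS TG, 67.5 ± 7.22 in siCTRL TG, 83.1 ± 9.96 in siMOCOS and 89.6 ± 13.2 in siCTRL C4-2B cells. Its order had siCTRL C4-2B cells at the top and siCTRL TG LNCaP cells at the bottom, again with every pair of neighbours overlapping. HMOX1 averaged 3.21 ± 0.522 CPM in siMOCOS TG, 5.93 ± 1.69 in siCTRL TG, 2.65 ± 0.999 in siMOCOS and 2.02 ± 0.402 in siCTRL LNCaP cells, and 3.10 ± 1.16 in siMOCOS TG, 3.82 ± 0.282 in siCTRL TG, 4.36 ± 0.602 in siMOCOS and 4.00 ± 0.530 in siCTRL C4-2B cells. It was highest in siCTRL TG LNCaP and lowest in siCTRL LNCaP cells, and all neighbours overlapped, the first pair through the fourth siCTRL TG library.

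NQO1 averaged 35.6 ± 6.04 CPM in siMOCOS TG, 36.2 ± 5.38 in siCTRL TG, 51.1 ± 5.70 in siMOCOS and 50.9 ± 2.27 in siCTRL LNCaP cells, and 25.3 ± 3.91 in siMOCOS TG, 22.6 ± 0.964 in siCTRL TG, 35.2 ± 3.11 in siMOCOS and 32.4 ± 2.53 in siCTRL C4-2B cells. The LNCaP means stood above the C4-2B means, though siMOCOS TG LNCaP and siMOCOS C4-2B cells overlapped, and in each line a gap without overlap parted the groups with TG from those without it in the order of means. GCLC averaged 49.2 ± 4.49 CPM in siMOCOS TG, 52.0 ± 2.99 in siCTRL TG, 44.6 ± 4.45 in siMOCOS and 46.0 ± 2.62 in siCTRL LNCaP cells, and 115 ± 4.40 in siMOCOS TG, 94.5 ± 5.61 in siCTRL TG, 79.3 ± 5.13 in siMOCOS and 80.3 ± 7.71 in siCTRL C4-2B cells. Gaps lay between siMOCOS TG, siCTRL TG and the other C4-2B groups, and between all C4-2B and all LNCaP groups, while the 4 LNCaP groups overlapped their neighbours. GCLM averaged 82.4 ± 23.6 CPM in siMOCOS TG, 88.9 ± 11.3 in siCTRL TG, 58.1 ± 19.5 in siMOCOS and 51.8 ± 10.2 in siCTRL LNCaP cells, and 53.2 ± 15.4 in siMOCOS TG, 51.7 ± 7.10 in siCTRL TG, 37.3 ± 5.57 in siMOCOS and 41.5 ± 6.18 in siCTRL C4-2B cells. Both TG groups of LNCaP led and siMOCOS C4-2B cells came last, with every pair of neighbours overlapping.

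TXN averaged 52.5 ± 19.2 CPM in siMOCOS TG, 65.0 ± 2.13 in siCTRL TG, 113 ± 36.7 in siMOCOS and 139 ± 19.9 in siCTRL LNCaP cells, and 54.0 ± 18.6 in siMOCOS TG, 60.9 ± 11.6 in siCTRL TG, 109.6 ± 29.8 in siMOCOS and 112 ± 20.9 in siCTRL C4-2B cells. The 4 groups without TG formed the upper part of the order and the 4 with TG the lower part, with 1 gap, between siMOCOS C4-2B and siCTRL TG LNCaP cells. TXNRD1 averaged 375 ± 117 CPM in siMOCOS TG, 464 ± 30.9 in siCTRL TG, 446 ± 97.4 in siMOCOS and 487 ± 39.9 in siCTRL LNCaP cells, and 235 ± 67.2 in siMOCOS TG, 241 ± 14.9 in siCTRL TG, 351 ± 49.9 in siMOCOS and 374 ± 49.9 in siCTRL C4-2B cells. By mean, all LNCaP groups came before all C4-2B groups, and the only gap between neighbours lay between siMOCOS C4-2B and siCTRL TG C4-2B cells. SRXN1 averaged 74.3 ± 6.02 CPM in siMOCOS TG, 98.3 ± 2.89 in siCTRL TG, 107 ± 12.0 in siMOCOS and 113 ± 7.13 in siCTRL LNCaP cells, and 64.1 ± 6.57 in siMOCOS TG, 74.7 ± 5.21 in siCTRL TG, 87.2 ± 2.12 in siMOCOS and 96.6 ± 8.99 in siCTRL C4-2B cells. Its order was led by siCTRL LNCaP cells and ended by siMOCOS TG C4-2B cells, with 1 gap between the same neighbours, siMOCOS C4-2B and siCTRL TG C4-2B cells.

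Over the 32 libraries, with the mean of each line subtracted, TXN, TXNRD1 and SRXN1 varied together (Pearson's r of log2 CPM, a description over libraries that share line, treatment and depth), at 0.87 for TXN with SRXN1, 0.82 for TXN with TXNRD1 and 0.76 for TXNRD1 with SRXN1. NFE2L2 and GCLM were also close, at 0.81, and GCLM with GCLC stood at 0.68. Many other genes had a higher r with these members. Of 10487 genes ranked by r, SRXN1 stood at 139 and TXNRD1 at 344 for TXN. TXN stood at 42 for SRXN1 and at 75 for TXNRD1. GCLM stood at 222 for NFE2L2, NFE2L2 at 99 for GCLM and GCLC at 915 for GCLM. KEAP1 ran against GCLC at -0.74 and against NFE2L2 at -0.69, and NQO1 against GCLM at -0.73. HMOX1 correlated with no other member above 0.57, which was its value with NFE2L2.

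**Figure D4:**
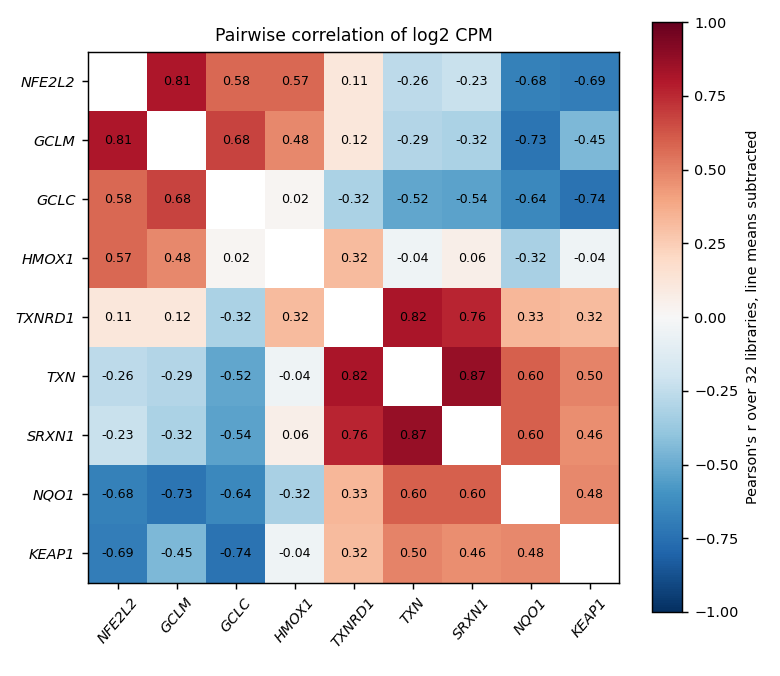
Pearson's r between the log2 CPM of each pair of the 9 genes over 32 libraries after subtraction of the line means. TXN, TXNRD1 and SRXN1 form a red block at 0.76 to 0.87, and KEAP1 and NQO1 are blue against NFE2L2, GCLM and GCLC.

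The genes most like each member by the same measure were named for their r alone. KLHDC2 was nearest to NFE2L2 at 0.934, TTLL12 to KEAP1 at 0.917, MTCH2 to NQO1 at 0.927 and SEPHS1 to TXN at 0.944. TGIF1 was nearest to HMOX1 at 0.782, followed by NFKBIA at 0.720. KLHL24 was nearest to TXNRD1 at 0.910, PPFIBP1 to GCLC at 0.886, SGTB to GCLM at 0.886, and RPL26, which stood at 0.942 with TXN, to SRXN1 at 0.919.

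The wider pathway was read from lists of regulators, other targets, glutathione genes and other antioxidant genes, to be set against the background given for each comparison. Of its regulators, 9 of 18 tested rose with TG in siCTRL LNCaP cells and 6 fell, against 24.6% and 25.1% of all genes. In C4-2B 3 of 17 rose and 5 fell, against 21.2% and 19.3%. BACH1, a repressor that competes with NRF2 for its sites, averaged 51.6 ± 7.33 CPM with TG and 30.5 ± 2.65 CPM without it in LNCaP (SD, n = 4 each; log2 change 0.76, adjusted p = 0.00013), and rose in C4-2B as well (log2 change 0.68, adjusted p = 0.00426). CUL3 and RBX1, parts of the ligase that KEAP1 directs, fell in both lines: CUL3 averaged 48.6 ± 4.00 CPM with TG and 87.3 ± 5.28 CPM without it in LNCaP, and 31.0 ± 4.03 CPM with TG and 72.3 ± 7.93 CPM without it in C4-2B. SYVN1, an ER ligase that also targets NRF2, rose in both (log2 change 1.20 in LNCaP and 0.85 in C4-2B), and NFE2L3, a relative of NRF2, fell in both (-1.73 and -1.66). SQSTM1, which draws KEAP1 into autophagy, rose in LNCaP (0.72, adjusted p = 0.00267) and was not called in C4-2B (0.20, adjusted p = 0.405). The same held for the NRF2 partners MAFG (0.43 in LNCaP and 0.09 in C4-2B) and MAFF (1.56 and 0.33). MAFF was low, at 2.88 ± 0.336 CPM with TG and 0.977 ± 0.0981 CPM without it in LNCaP. The TG response was not shown to differ between the lines for any of the 18 regulators, against 0.848% of all genes.

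Of 46 other NRF2 targets listed, 45 were in the table, 36 passed the filter in LNCaP and 33 in C4-2B. In LNCaP 7 of these rose and 17 fell with TG, against 24.6% and 25.1% of all genes, and in C4-2B 2 rose and 16 fell, against 21.2% and 19.3%. They had median log2 changes of -0.36 and -0.42 in LNCaP and C4-2B, against -0.04 and -0.01 over all genes. PRDX1, a peroxiredoxin that thioredoxin reduces, averaged 78.5 ± 12.3 CPM with TG and 401 ± 6.91 CPM without it in LNCaP, and 81.3 ± 3.44 CPM with TG and 373 ± 63.9 CPM without it in C4-2B (log2 changes -2.35 and -2.20). The exporter ABCC1 (-1.15 in LNCaP and -1.12 in C4-2B), the glutathione transferase GSTM3 (-0.79 and -0.70) and the haem-forming enzyme FECH (-0.50 and -0.48) fell too. SLC7A11, the cystine importer, and TRIM16 rose instead. SLC7A11 averaged 608 ± 120.3 CPM with TG and 139 ± 5.09 CPM without it in LNCaP (log2 change 2.13; 1.82 in C4-2B), and TRIM16 changed by 2.25 in LNCaP and 1.56 in C4-2B.

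Of 18 genes of glutathione synthesis and turnover, 4 rose and 3 fell with TG in LNCaP, against 24.6% and 25.1% of all genes. In C4-2B 4 rose and 2 fell, against 21.2% and 19.3%. The 4 that rose were the same in both lines: CHAC1, which degrades glutathione (log2 change 3.06 in LNCaP and 2.79 in C4-2B), CTH, which makes cysteine (1.76 and 1.91), and the transporter subunits SLC3A2 (1.90 and 1.28) and SLC7A11. GSR, glutathione reductase, fell in both (-0.56 and -0.58). GSR and SLC7A11 were also on the list of other NRF2 targets and were counted in each list. All 6 ATF4 and CHOP genes listed for reference, such as DDIT3 (3.31 in LNCaP and 2.84 in C4-2B), rose in both lines. Of 24 other antioxidant genes, 4 rose and 9 fell in LNCaP, and 4 rose and 7 fell in C4-2B, against the same shares of all genes. SESN2 was up (2.87 and 2.60), the thioredoxin-binding TXNIP up (1.27 and 1.53) and superoxide dismutase SOD1 down (-0.59 and -0.77).

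Of the listed targets, knockdown without TG moved 6 of 36 in LNCaP and 7 of 33 in C4-2B, where 15.7% and 17.2% of all genes were called. Of the regulators it moved 4 of 18 in LNCaP, 2 in each direction, and 3 of 17 in C4-2B, all lower. Of the listed genes named here, CHAC1 in C4-2B changed most, with 1.24 ± 0.640 CPM in siMOCOS and 5.32 ± 1.58 CPM in siCTRL cells (SD, n = 4 each; log2 change -2.09, adjusted p = 0.000269). In LNCaP none of the 18 glutathione genes, CHAC1 among them, was called lower (lowest log2 change -0.42). ATF4 and CHOP reference genes were called in 2 of 6 cases in LNCaP and 3 of 6 in C4-2B, all lower. Over all genes 15.7% and 17.2% were called in either direction. TRIB3 (-0.67 in LNCaP and -0.95 in C4-2B) and ASNS (-0.86 and -0.61) were among those called lower. UGDH, which makes the substrate for glucuronidation, averaged 115 ± 12.2 CPM in siMOCOS and 264 ± 24.8 CPM in siCTRL LNCaP cells, and 89.3 ± 3.54 CPM in siMOCOS and 207 ± 17.8 CPM in siCTRL C4-2B cells (log2 changes -1.21 and -1.23). It was the only listed NRF2 target called lower in either line. The other calls, 5 of 36 in LNCaP and 6 of 33 in C4-2B, were higher. Of all 14127 genes tested in C4-2B, 2434 were called, 1150 of them lower. The split by direction over all genes is given here for C4-2B alone. GSTM3 (0.50 in LNCaP and 0.56 in C4-2B) and the exporter ABCC4 (0.54 and 0.93) rose in both lines. SLC7A11 was not called (-0.33 in LNCaP and -0.74 in C4-2B).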

How the data were processed

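The authors deposited length-scaled estimated counts per gene for 32 libraries, which are not whole numbers (100% of values above 0), and these were rounded before testing. Per the submitters' processing notes, which name no order or role, the tools were Salmon 1.5.2, STAR 2.6.1d, Trim Galore 0.6.7, FastQC 0.11.9 and cutadapt 3.4, with build hg38. Depth was 7507226 to 27088570 counts per library; length scaling can shift values where transcript use changes.

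Genes were filtered with filterByExpr and tested with edgeR 4.0.16 (R 4.3.3), with TMM factors and the quasi-likelihood F-test, in 1 model per line (16 libraries, 4 groups), and in 1 model of all 32 libraries for line differences. P-values were adjusted by Benjamini-Hochberg over all genes tested (13806 in LNCaP, 14127 in C4-2B, 14628 together), and differences called at 0.05. CPM came from the model of 32 libraries and changes from the model of the line, with edgeR's default prior count. The script was tested on simulated data. The design text calls the replicates biological, and nothing says what each came from, so p-values measure the spread between these samples. Each siMOCOS group pools 2 siRNAs, so the spread of its 4 libraries also holds any difference between the siRNAs. The groups in a model share the estimate of spread.

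All 9 members were tested in each comparison, and not every member is given a value in each. From the wider lists, the called genes with the 4 smallest adjusted p in each direction and with mean CPM of 5 or more could be named, plus SLC7A11, SQSTM1, BACH1, MAFG, MAFF and CUL3; the 3 genes most like each member were ranked by Pearson's r under the same level limit. Members and lists were chosen with earlier results of these data known. Promoters are from RefSeq (GRCh38.p14) and gene positions from GENCODE 29. Alternatives were DESeq2 1.42.0, limma voom (limma 3.58.1), 2 other normalizations, no filter, all libraries in 1 model, a replicate block, pairs of knockdown columns left out, and each library left out.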

Additional observations from a re-analysis of the deposited data

Results flagged for a closer look

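In 6 of 72 combinations of gene and group, 1 of the 4 libraries lay far from the other 3; chance flags about 1 in 20 such groups. GCLC was low in siMOCOS C4-2B column 3, at 71.7 CPM. KEAP1 was high in siMOCOS TG LNCaP column 1, at 49.9 CPM. NFE2L2 was low in siCTRL TG C4-2B library 3, at 62.2 CPM, and NQO1 in siCTRL TG LNCaP library 4, at 28.1 CPM. TXN was low in siCTRL C4-2B library 2, at 81.2 CPM, and TXNRD1 was high in siCTRL LNCaP library 1, at 546 CPM.

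The HMOX1 response to TG in siCTRL cells differed between the lines by 1.63 on the log2 scale (LNCaP minus C4-2B, edgeR adjusted p = 0.0220), with all 4 TG libraries above all 4 controls in LNCaP and overlapping groups in C4-2B.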

How the results depend on the processing

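No called change of the 9 genes reversed. With 1 library left out, 2510 of 2592 results kept their direction or stayed uncalled on their side of the threshold, 66 lost a call and 16 gained one; under the other settings 927 of 972 did, 19 lost a call and 26 gained one. Uncalled changes switched sign in 109 and 71 of these. Of the 9 genes, the number called for knockdown in TG-treated C4-2B cells (1) became 2 with all 32 libraries in 1 fit, 0 with DESeq2 size factors, 0 with no filter, 0 without knockdown columns 1 and 2, and 3 without columns 3 and 4. For knockdown in TG-treated LNCaP cells (2) it was 1 without columns 1 and 2 and 6 without columns 3 and 4, and for LNCaP without TG (0) it was 1 and 2. The cause was not tested. Leaving out 1 library gave 4 to 7 for TG in siCTRL and 6 to 8 for TG in siMOCOS C4-2B cells, 5 to 6 and 4 to 6 for the same in LNCaP, 0 to 1 and 1 to 3 for knockdown with TG in C4-2B and in LNCaP, 4 to 5 for the line difference without treatment, 0 to 1 for the line difference in the TG response, and 0 to 0 for the others. Replicate numbers did not pair the siCTRL TG with the siCTRL libraries (same-number r of -0.348 to 0.152 in C4-2B and -0.0658 to 0.210 in LNCaP). A replicate block on the siCTRL libraries alone called 3 genes in C4-2B (NQO1, TXN and TXNRD1). With no block it was 6, with SRXN1, KEAP1 and NFE2L2 besides (SRXN1 had an adjusted p of 0.0816 with the block). In LNCaP the block gave 7 genes and the fit with no block 6. GCLC was called in each of these LNCaP fits, and KEAP1 only in the one with the block. No library stood apart in the fits within a line, so no such alternative was run there; in the fit of 32 libraries, C4-2B siCTRL TG library 3 and siMOCOS TG column 3 did (deviation 1.53 and 1.51 times the median). HMOX1 had the lowest levels of the 9 genes, at 1.34 to 7.08 CPM.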
